A study of Mus musculus with 401 samples.

Results

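Single oocytes from mice of 2 and 4 months of age were compared in the second sequencing set, which added an age of 4 months to the young end of the series. The members were the oocyte libraries of the second set labelled 2 or 4 months after hyperovulation: 63 of the 401 libraries of the series, 24 from 5 mice of 2 months and 39 from 8 mice of 4 months. All 13 mice were B6D2F1 females (C57BL/6 x DBA/2, a hybrid strain), fed ad libitum, and all received a hormone injection to ripen extra follicles (hyperovulation). The 2-month mice that had no hyperovulation (labelled NoH) were left out of the comparison. Each library was made from a small part of the lysate of 1 oocyte from a fully grown follicle, still in meiotic arrest (germinal vesicle stage) and freed of its cumulus cells by pipetting, by RamDA-seq, a full-length total RNA method. Plate B1 carried 3 mice of 2 months and 4 of 4 months, and plate B2 carried 2 and 4 mice, so each plate held both ages. A mouse gave 3 to 8 oocytes. Because oocytes of 1 mouse share an animal, counts were summed per mouse, and the mouse was the unit of the main test.

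A mouse oocyte of this stage is the end of a long growth phase. It has stored the messenger RNAs and proteins that will carry it through both meiotic divisions and the first cleavages, and its own transcription has largely stopped, so its RNA pool is a standing store more than a running response. Cohesin, the ring that has held sister chromatids together since fetal life, the spindle checkpoint, the zona pellucida glycoproteins, the growth factors Gdf9 and Bmp15 that the oocyte sends to the cumulus cells, and the maternal effect proteins of the subcortical complex are the best known parts of that store. Errors of chromosome segregation tied to maternal age are known from mice much older than these.

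The libraries carried the RNA of oocytes. The 13 oocyte markers summed to a median of 23247 CPM (counts scaled to a common library total) in an oocyte library and to 3.93 CPM in a cumulus cell library. The 12 cumulus markers summed to 293.4 CPM in the median oocyte library, against 9342 CPM in the median cumulus library. Most of the cumulus marker sum in oocytes came from Serpine2, a protease inhibitor (206 ± 7.86 CPM at 2 months and 199.9 ± 10.5 CPM at 4 months, SD over mice). Amh and Foxl2, defining genes of granulosa cells, were near 0 in oocytes. At 2 and 4 months their means were 0.613 and 1.17 CPM for Amh and 0.252 and 0.174 CPM for Foxl2. Other cumulus markers were higher: Nr5a2 was at 59.5 and 58.0 CPM, Cyp19a1 at 13.2 and 12.4 CPM and Inha at 8.96 and 10.2 CPM. Hsd17b1 was at 3.79 and 3.82 CPM, and Inhba at 3.36 and 2.71 CPM. Fst, Fshr, Npr2 and Slc38a3 had means of at most 1.30 CPM. Of the 12 cumulus markers 0 passed the adjusted threshold in the comparison of ages. Total counts ran from 1719013 to 2433019 per library at 2 months (median 2118731) and from 1238441 to 2409422 at 4 months (median 2047067). No library was identical to another. Log counts of 2 oocytes of 1 mouse correlated with a median r of 0.968 over 141 pairs, and those of 2 oocytes of different ages on the same plate with a median r of 0.967 over 496 pairs, as a description of how alike the libraries were.

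No gene of the oocyte was called different between 2 and 4 months. In the fit of mouse sums (edgeR quasi-likelihood test with the plate as covariate, Benjamini-Hochberg adjustment), 0 of 25774 genes passed an adjusted p of 0.05 (0% called), and the smallest adjusted p was 0.296. At an unadjusted p under 0.05 there were 1293 genes, 590 with a higher and 703 with a lower mean at 4 months (2.29% and 2.73% of the genes tested), and with DESeq2 on the same sums 3 genes passed (Mfsd1, Nup188 and Gm45410). Leaving out 1 mouse gave 2 genes without mouse 4mo5, 1 without mouse 2mo2 and 0 without any of the other 11. Of the 10669 genes with a mean of at least 5 CPM, the median standard error of the log2 fold change was 0.075 and the median absolute log2 fold change 0.049. The 95% interval lay wholly between -0.5 and 0.5 for 10333 of them (96.9%) and between -1 and 1 for 10656 (99.9%), so a difference of 1 log2 unit lay outside the interval of nearly all of these genes. Among the same genes 5.31% had an unadjusted p under 0.05. The common coefficient of variation between mice was 0.075 for oocytes and 0.175 for cumulus cells.

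**Figure D1:**
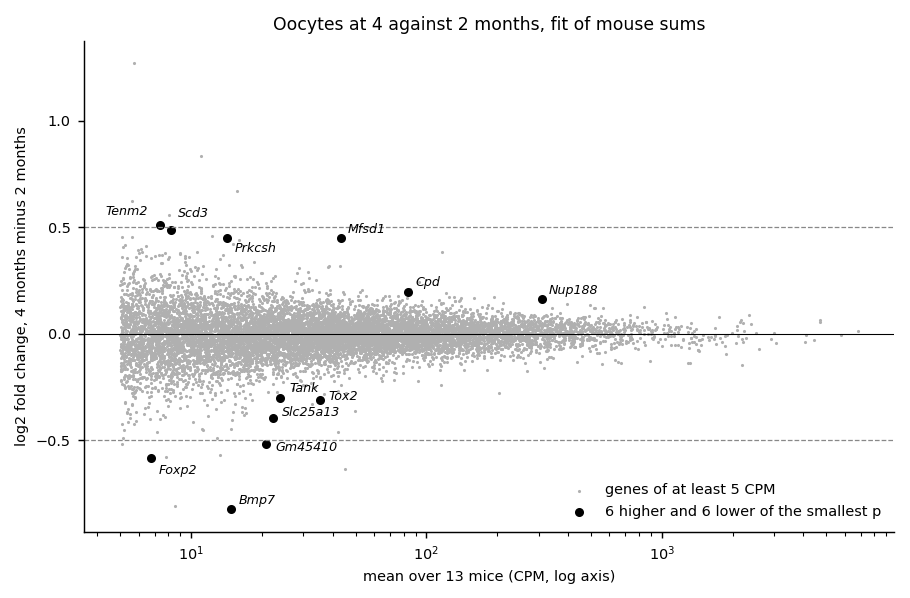
Log2 fold change at 4 against 2 months (vertical axis) against mean level over the 13 mice in CPM (horizontal log axis) for the 10669 genes of at least 5 CPM, with dashed lines at -0.5 and 0.5. Only 14 genes lie beyond the dashed lines, and the 12 genes in black are the 6 higher and 6 lower ones of the smallest p, none of which passed the adjusted threshold.

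Only 14 of these genes had an absolute log2 fold change over 0.5, and 13 of them had a mean under 25 CPM. Pde7b, a phosphodiesterase of cyclic AMP, had the largest, 1.27 (0.22 to 2.32), with means of 3.16 ± 2.74 CPM at 2 months and 7.34 ± 4.81 CPM at 4 months, but 1.96 within plate B1 and -0.12 within plate B2. Gja1, the gap junction protein connexin 43, had 7.55 ± 5.92 and 13.2 ± 5.67 CPM, a log2 fold change of 0.83 (0.12 to 1.54), with 1.60 within plate B1 and 0.15 within plate B2. Cumulus cells held Gja1 at 7179 CPM, and their part in its level in oocytes was not tested. Both had an edgeR adjusted p of 0.97. They were singled out after their values were seen.

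Since no gene passed, the genes named next are the 6 of each direction with the smallest p, at a mean of at least 5 CPM and with the same direction on both plates. They are given as values, not as changes. The same mice chose them, so how many older mice lie beyond all younger ones is a description and not a test. The smallest p among the higher genes was that of Mfsd1, which encodes a transporter of the lysosome membrane (GRCm38 chromosome 3, 67582741 to 67604237). The 5 mice of 2 months had 35.7, 36.2, 30.7, 31.6 and 41 CPM, and the 8 mice of 4 months ran from 36.8 to 55.2 CPM with a median of 49.6. Of the 8 older mice 7 were above every younger one, and mouse 4mo5 was the exception. The log2 fold change was 0.45 (95% interval 0.27 to 0.63, edgeR adjusted p = 0.32), and it was 0.41 within plate B1 and 0.49 within plate B2.

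Nup188, a scaffold protein of the nuclear pore, was the most abundant of the 6. Its 2-month mice had 299, 304, 303, 265 and 277 CPM, and the 4-month mice ran from 299 to 346 CPM with a median of 319. The difference was small, a log2 fold change of 0.16 (0.09 to 0.24, edgeR adjusted p = 0.54). Cpd, a carboxypeptidase of the trans-Golgi network, had 82.8, 76.2, 71.1, 76.5 and 76.3 CPM at 2 months, and from 84.5 to 92.2 CPM with a median of 87.2 at 4 months. All 8 older mice were above all 5 younger ones, at a log2 fold change of 0.20 (0.10 to 0.29). Such a full separation of the mice was seen in 19 of the 10669 genes (0.178%), 7 with all older mice above and 12 with all older mice below.

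Prkcsh encodes the beta subunit of glucosidase II, which trims sugars on new glycoproteins in the endoplasmic reticulum. Its values were 13.2, 11.5, 9.14, 12.7 and 12.1 CPM at 2 months, and 12.3 to 17.7 CPM (median 16.3) at 4 months, with 7 of 8 older mice above all younger ones. Scd3, a stearoyl-CoA desaturase that puts a double bond into fatty acids, had 8.09, 5.89, 5.63, 6.96 and 6.43 CPM at 2 months, and 8.04 to 10.9 CPM (median 9.02) at 4 months. Tenm2, a teneurin of the cell surface, had 6.04, 5.41, 6.67, 5.17 and 5.10 CPM at 2 months, and 6.81 to 10.8 CPM (median 8.74) at 4 months, with no overlap between the ages. These 3 genes are low in the oocyte, and their log2 fold changes were 0.45, 0.49 and 0.51 with intervals whose lower ends were 0.23, 0.26 and 0.25.

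Of the 6 genes with lower means at 4 months, Bmp7, a secreted bone morphogenetic protein, had the widest difference and also the widest spread. Its mice had 18.1, 26.1, 18.8, 11.8 and 28.1 CPM at 2 months, and 5.41 to 16.9 CPM (median 11.6) at 4 months. The log2 fold change was -0.82 (-1.23 to -0.41, edgeR adjusted p = 0.54), and 4 of 8 older mice were below every younger one. Single oocytes ran from 5.15 to 35.9 CPM at 2 months and from 0.601 to 40.3 CPM at 4 months, so the oocytes of both ages overlapped.

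Slc25a13 encodes citrin, the mitochondrial aspartate/glutamate carrier. Its values were 22.7, 27.6, 27.2, 24.8 and 28.1 CPM at 2 months, and 16.7 to 23.7 CPM (median 19.7) at 4 months. Tox2, a high mobility group box factor, had 39.6, 40.8, 42.1, 36.3 and 41.5 CPM at 2 months, and 25.9 to 39.7 CPM (median 32.6) at 4 months. In 6 and 7 of the 8 older mice the value was below that of every younger mouse, at log2 fold changes of -0.40 (-0.57 to -0.22) and -0.31 (-0.46 to -0.16).

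Tank, an adaptor protein of the NF-kappa-B and interferon pathways, had 24.4, 23.7, 27.2, 30.2 and 28.9 CPM at 2 months, and 19.7 to 25.4 CPM (median 21.8) at 4 months. Foxp2, a forkhead transcription factor, had 7.83, 4.92, 8.39, 9.997 and 11 CPM at 2 months, and 4.57 to 7.52 CPM (median 5.44) at 4 months. The ages overlapped in both genes. The last of the 6, Gm45410, is an unconfirmed transcript of chromosome 8 (13391106 to 13392198). In 98.4% of the oocyte libraries with a count its count was not whole, so some of its reads were shared with other places in the genome. The share of such reads was not measured, and the level of Gm45410 is uncertain. It had 24.1, 19.2, 27.3, 29.99 and 26.4 CPM at 2 months, and 15.03 to 20.8 CPM (median 18.2) at 4 months, a log2 fold change of -0.52 (-0.71 to -0.32, edgeR adjusted p = 0.30).

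**Figure D2:**
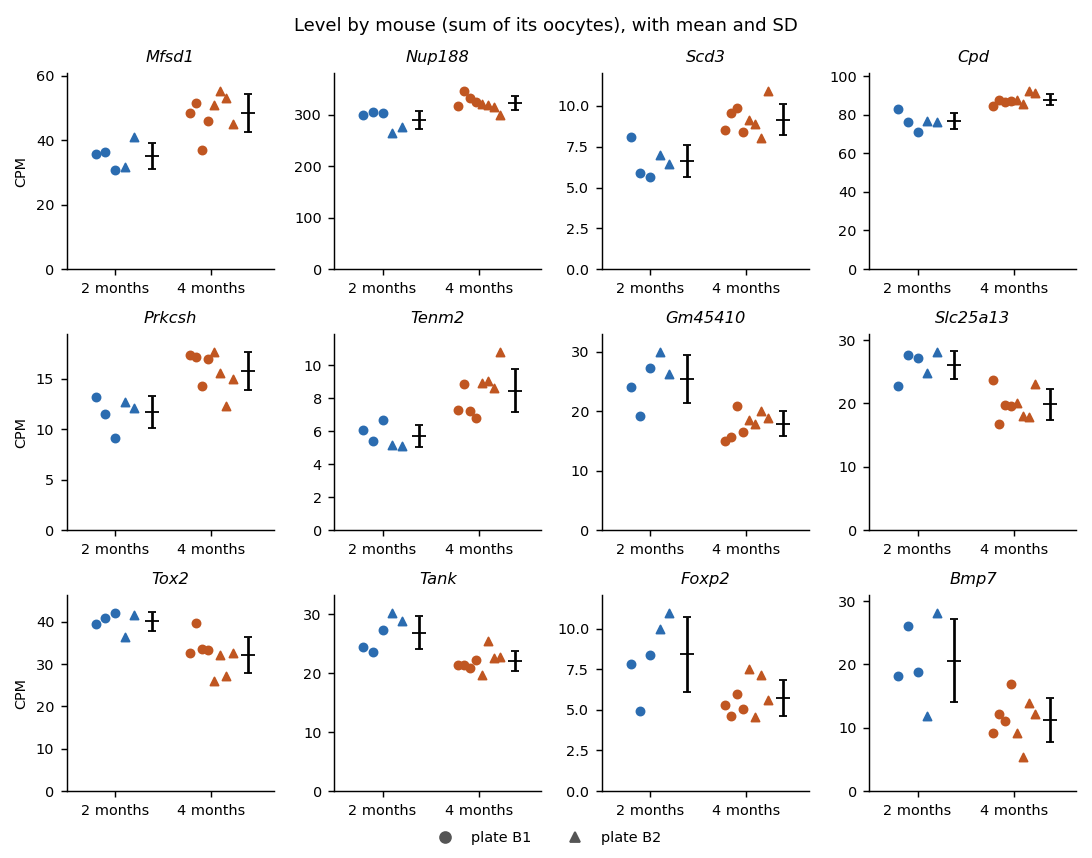
Level in CPM (vertical axes, from 0) of the 12 genes in each mouse at 2 and 4 months, as the sum over its oocytes, with circles for plate B1, triangles for plate B2 and the mean and SD over mice at the side. The ages do not overlap in Cpd and Tenm2 and overlap in the other 10 genes, and both plates show the same direction in each, as the rule required.

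The other oocyte groups of the set, from other mice, were normalized together with these and set beside them. No test was made, since each such comparison would use the 2- or 4-month mice of the main one again. Mfsd1 was at 37.7 ± 3.04 CPM (SD over 8 mice) in the 2-month oocytes without hyperovulation, next to the 35.1 ± 4.13 CPM of the hyperovulated ones. It was at 50.9 ± 3.65 CPM (4 mice) at 9 months and 48.4 ± 7.27 CPM (5 mice) at 14 months, next to the 48.5 ± 5.82 CPM at 4 months. Prkcsh had 12.7 ± 2.32 CPM without hyperovulation and 11.8 ± 1.59 CPM with it at 2 months, and 15.8 ± 1.88, 16.5 ± 1.93 and 16.6 ± 3.23 CPM at 4, 9 and 14 months. Gm45410 had 23.6 ± 3.24 and 25.5 ± 4.05 CPM in the 2-month groups and 18.0 ± 2.07, 18.5 ± 2.26 and 16.7 ± 2.11 CPM in the older ones. In these 3 genes and in Nup188, Tenm2, Tox2 and Bmp7, 7 of the 12, the means of both 2-month groups lay on one side of the means of all 3 older groups. The 2- and 4-month values of hyperovulated mice had chosen all 12 genes, so this order is in part set by the choice. How often it occurs among all genes was not counted.

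In the other 5 genes the hyperovulated 2-month group had the most extreme mean of the 5 groups. Its values had helped to choose the genes, so its place in the order is a description. Scd3 had 8.72 ± 1.87 CPM without hyperovulation at 2 months, 6.61 ± 0.981 CPM with it, and 9.18 ± 0.935 CPM at 4 months. Cpd had 84.4 ± 6.28, 76.7 ± 4.18 and 87.9 ± 2.68 CPM in these groups, and 79.3 ± 8.47 CPM at 14 months. Slc25a13 had 20.97 ± 3.59, 26.2 ± 2.28 and 19.9 ± 2.44 CPM. Tank and Foxp2 were highest in the hyperovulated 2-month group too.

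**Figure D3:**
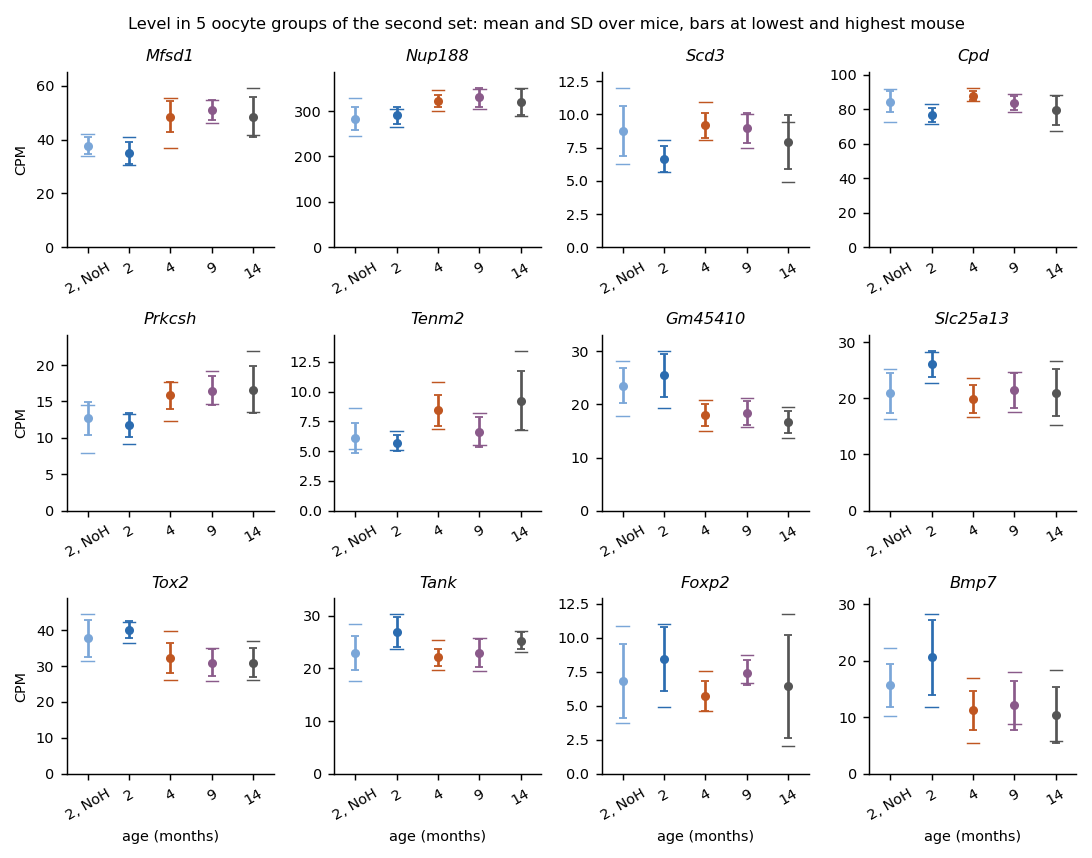
Level in CPM (vertical axes, from 0) of the same 12 genes in the 5 oocyte groups of the second set, ordered along the horizontal axis as 2 months without hyperovulation (NoH), then 2, 4, 9 and 14 months after it, as mean and SD over 8, 5, 8, 4 and 5 mice with short bars at the lowest and highest mouse. In 7 genes, among them Mfsd1, Prkcsh and Gm45410, the means of both 2-month groups lie on one side of the 3 older groups. In Scd3, Cpd, Slc25a13, Tank, Foxp2 and Bmp7 the mean without hyperovulation lies nearer the 4-month mean than the hyperovulated 2-month one. All 12 genes were chosen by their values at 2 and 4 months after hyperovulation.

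With each oocyte taken as a unit (63 libraries, the unit used in the study), 3 of 25774 genes passed (0.0116%), and 1744 had an unadjusted p under 0.05. Mfsd1 was higher at 4 months (log2 fold change 0.45, edgeR adjusted p = 0.0297 in the per-oocyte fit), with single oocytes from 19.1 to 49.4 CPM (median 34.9) at 2 months and from 26.4 to 72.2 CPM (median 47.4) at 4 months. Gm45410 was lower (log2 fold change -0.52, edgeR adjusted p = 0.0297 in the per-oocyte fit). Oocytes of 1 mouse are not independent, and neither gene passed in the edgeR fit of filtered mouse sums, while both passed in DESeq2 on the same sums and in edgeR with no filter. The per-oocyte count was 0 without mouse 2mo34 or without mouse 4mo25, and 8 without mouse 2mo2. The consensus correlation among oocytes of a mouse was low, at 0.014 in limma's mixed fit.

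The third gene of the per-oocyte fit was Man2b2, which encodes an alpha-mannosidase of the lysosome (chromosome 5, 36806921 to 36830653). It lies far under the level asked of named genes and was named after its values were seen. As only part of each lysate was sequenced, single reads carry sampling error. In the 2-month oocytes it had 1 read in all, in 1 of 24 oocytes (0.0194 CPM over the group). In the 4-month oocytes it had 41 reads in 21 of 39 oocytes (0.511 CPM), and no oocyte held more than 6. The ratio of these rates was 26.3, with an exact counting interval of 4.47 to 1065 that covers counting error only. By mouse, 4 of the 5 younger animals were at 0 and mouse 2mo34 at 0.0575 CPM, and the 8 older ones ran from 0.120 to 0.900 CPM with a median of 0.437. The per-oocyte fit gave an edgeR adjusted p of 0.00359, and the fit of mouse sums 0.296. In the 2-month oocytes without hyperovulation the mean was 0.283 ± 0.346 CPM, with a highest mouse of 1.03 CPM, so its level near 0 in the hyperovulated 2-month mice was not seen in every 2-month group. Cumulus cells held the gene at 17.01 CPM. The summed cumulus markers in the oocytes were at 3.19% ± 0.197 of the median cumulus library at 2 months. At 4 months they were at 3.11% ± 0.163. Most of that sum was Serpine2, at 206 and 199.9 CPM in oocytes against 820 CPM in cumulus cells. Nr5a2 was at 59.5 and 58.0 CPM against 591 CPM, but Inha at 8.96 and 10.2 CPM against 2995 CPM. Amh was at 0.613 and 1.17 CPM against 189 CPM. So 1 percentage does not hold for all markers, and the part of cumulus RNA in the reads of Man2b2 was not tested.

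The cumulus cells of the same oocytes came from the same mice. In their own fit of mouse sums 0 of 26857 genes passed (0% called), with a smallest edgeR adjusted p of 0.269, and 2187 had an unadjusted p under 0.05. For the difference between the cell types, tested within mice, 0 of 32858 genes passed (0% called), with a smallest edgeR adjusted p of 0.193 and 1298 genes at an unadjusted p under 0.05. Leaving out 1 mouse gave 32 genes without mouse 4mo29, 13 without mouse 4mo3, 5 without mouse 4mo5, 2 without mouse 2mo34 and 1 without mouse 4mo4. In cumulus cells it gave 3 without mouse 2mo34 and 1 without mouse 2mo2 or mouse 4mo29. Mfsd1 was at 54.4 CPM in cumulus cells, with a log2 fold change of -0.05 there against 0.45 in oocytes. Prkcsh had 0.03 in cumulus cells against 0.45, and Slc25a13 0.04 against -0.40. None of these differences between cell types passed (edgeR adjusted p = 0.80, 1.0 and 0.96), so none can be called particular to oocytes. Tox2 was far more abundant in cumulus cells, at 413 CPM, with a log2 fold change of -0.05.

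The zona pellucida genes Zp1, Zp2 and Zp3, which encode the coat that sperm bind, were at 1411 ± 61.0, 3130.4 ± 271 and 2671 ± 113 CPM at 2 months. At 4 months they were at 1394 ± 46.8, 3042 ± 133 and 2536 ± 131 CPM. Gdf9 had 4599 ± 389 and 4781 ± 142 CPM, and Bmp15 had 4483 ± 404 and 4414 ± 135 CPM. The intervals of these 5 log2 fold changes all lay between -0.15 and 0.14. The list of 12 zona and growth factor genes had 0 members past the adjusted threshold and a median log2 fold change of -0.02, beside a median of -0.003 over all genes of at least 5 CPM.

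The 17 maternal effect genes, whose proteins the embryo needs before it makes its own, showed the same: 0 passed, the median was 0.00, and no interval reached beyond -0.16 or 0.23. Nlrp5 (also known as Mater), a core of the subcortical maternal complex, was at 1333 ± 139 CPM at 2 months and 1300.0 ± 103 CPM at 4 months. Dppa3 (Stella), which guards methylation of the maternal genome, was at 146 ± 10.6 and 155 ± 15.6 CPM. Its count was not whole in 87.3% of the oocyte libraries, so some of its reads were shared among places in the genome. Ooep, another subcortical complex member, had the highest log2 fold change of the list, 0.12, at 492 ± 19.4 and 532 ± 53.0 CPM, with an unadjusted p of 0.0308 in edgeR's test and an adjusted p of 0.97. Dnmt1, the maintenance DNA methyltransferase, averaged 4577 CPM at 2 months and 4788 CPM at 4 months (log2 fold change 0.06, interval 0.01 to 0.12, edgeR adjusted p = 0.97).

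Among oocyte transcription factors 11 of the 13 at 5 CPM or more had log2 fold changes below 0, with a median of -0.04, and 0 passed. The 3 homeobox genes of the Obox cluster in the list were the lowest of them in p: Obox1 was at 669 ± 37.4 and 615 ± 30.6 CPM, Obox2 at 596 ± 34.8 and 562 ± 26.2 CPM and Obox5 at 460 ± 45.5 and 421 ± 18.6 CPM. Their log2 fold changes were -0.12, -0.09 and -0.13, at edgeR adjusted p of 0.87, 0.97 and 0.90. At least 98.4% of their counts per oocyte library were not whole, so some of their reads were shared with other places in the genome. The share of such reads was not measured, and the levels of these 3 genes are uncertain. They were named after their values were seen. Pou5f1 (Oct4) was at 70.1 ± 1.98 and 66.6 ± 3.21 CPM, and Nfya at 591 ± 16.7 and 588 ± 31.2 CPM. Both stayed within intervals of -0.17 to 0.06.

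Cohesin genes had like levels at both ages. Of the 20 cohesin subunits and regulators at 5 CPM or more, 11 were above 0 and 9 below, and the median log2 fold change was 0.01. All 20 intervals lay within -0.5 and 0.5 (from -0.33 to 0.36). The plates differed: 13 of the 20 were above 0 within plate B1 (median 0.03) and 5 within plate B2 (median -0.07). Rad21, the mitotic kleisin, was at 169 ± 7.78 and 170 ± 4.83 CPM, and Smc3 at 112 ± 4.86 and 114 ± 5.02 CPM. The meiotic subunits were low: Smc1b was at 9.43 ± 1.57 and 8.83 ± 1.18 CPM, and Stag3 at 5.43 ± 0.593 and 5.78 ± 1.20 CPM. Rec8, the meiotic kleisin that shugoshin protects (chromosome 14, 55618037 to 55625395), had 0 reads in all 63 oocytes. A count of 0 allows a level of up to 0.0228 CPM (3 counts over all libraries, counting error only), so no comparison of ages could be made. That bound holds only if the reads of this gene were counted in full, which was not checked and deserves a look. Rec8 protein is known from mouse oocytes, only part of each lysate was sequenced, and the reason for the 0 was not tested, so it does not show that oocytes lack this RNA. The cumulus libraries of the same ages held 68.5 counts of it in 33 of 64 libraries, or 1.25 CPM. Sgo2a, the shugoshin, was at 49.3 ± 3.45 and 50.9 ± 3.32 CPM.

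The genes of the spindle checkpoint and kinetochore gave 16 members above and 16 below 0, with a median of 0.00 and intervals from -0.28 to 0.33. Within plates B1 and B2, 21 and 15 of these 32 were above 0. Bub1b (BubR1), the most abundant checkpoint kinase of the list, was at 2227 ± 149 and 2238 ± 44.9 CPM. Aurkc, the germ cell Aurora kinase, was at 264 ± 12.8 and 243 ± 17.1 CPM (log2 fold change -0.11, edgeR adjusted p = 0.97), with 98.4% of its counts not whole. For the 22 genes of meiotic resumption, 7 were above and 15 below 0, the median was -0.01, and Mos, the kinase that drives the second arrest, was at 594 ± 43.2 and 586 ± 33.8 CPM. In these lists, as in all 31, 0 members passed the adjusted threshold (0% of all genes were called). Across the lists 29 of 844 distinct genes had an unadjusted p under 0.05 in edgeR's test (3.44%), 11 with higher and 18 with lower means at 4 months. At 5 CPM or more it was 24 of 681 (3.52%), beside 5.31% of all genes of that level.

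Among genes of the endoplasmic reticulum and integrated stress response, those at 5 CPM or more had fitted differences of 1 sign, all small. This list was singled out among the 31 after its values were seen, so its single sign is a description and not a test. All 20 members at 5 CPM or more had a log2 fold change above 0, with a median of 0.06 and a range from 0.02 to 0.22, whereas 48.5% of the 10669 genes were above 0. Of the 7 members under 5 CPM, 6 had a log2 fold change below 0, among them Xbp1 and Asns, so the single sign held for the better measured members alone. Pdia4, a disulfide isomerase, was at 122 ± 9.39 and 136 ± 7.07 CPM, and Hsp90b1, the chaperone GRP94, at 111 ± 9.18 and 127 ± 9.41 CPM. Hspa5, the chaperone BiP, was at 97.7 ± 13.4 and 109 ± 15.2 CPM. The edgeR adjusted p was 0.76, 0.77 and 0.99 for these 3, which were named after their values were seen, and 0 of the 27 members passed. In the same test 2 of the 27 had an unadjusted p under 0.05. By the difference of mean log2 CPM, 16 of the 20 were above 0 within plate B1 and 13 of 20 within plate B2, with medians of 0.08 and 0.11. Ddit3 (CHOP), the factor that carries prolonged stress towards cell death, was at 12.2 ± 1.83 and 13.4 ± 1.85 CPM.

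Genes encoded by the mitochondrial genome differed between the plates in sign. Within plate B1 all 14 at 5 CPM or more were above 0 (median 0.39), and within plate B2 all 14 were below 0 (median -0.20). The 2-month mice of plate B1 had 0.439%, 0.455% and 0.472% of their counts on mitochondrial genes, and those of plate B2 had 0.681% and 0.680%. The 8 mice of 4 months ran from 0.460% to 0.581% over both plates. Over all mice the share was 0.545% ± 0.124 at 2 months and 0.521% ± 0.0417 at 4 months. The difference weighted over the plates was -0.0348 points (exact permutation test within plates, two-sided, p = 0.36). It averaged differences of opposite sign, 0.0521 points within plate B1 and -0.146 within plate B2. In the fit with the plate as covariate, the 12 messenger RNAs of the list were above 0 and both ribosomal RNAs, mt-Rnr1 and mt-Rnr2, below it (log2 fold changes of -0.10 and -0.15). The cumulus marker level, most of which was Serpine2, also went both ways. It differed by 0.139 percentage points (4 minus 2 months) within plate B1 and by -0.351 within plate B2. In cumulus cells mt-Rnr1 stood at 33741 CPM, against 1955 CPM in 2-month oocytes. The part of cumulus RNA in these values was not tested. Genes of the respiratory chain encoded in the nucleus had a median of -0.01, and those of mitochondrial ribosomal proteins of -0.02. Within plates B1 and B2, 43 and 21 of the 72 respiratory chain genes were above 0.

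**Figure D4:**
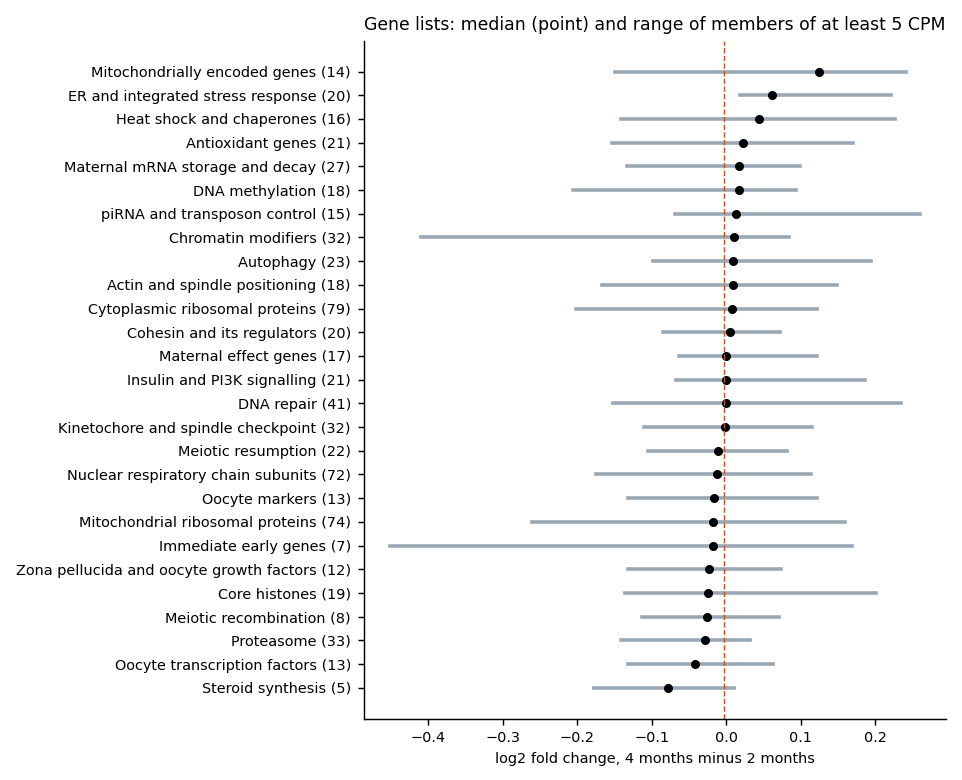
Log2 fold change at 4 against 2 months (horizontal axis) of the gene lists with at least 5 members at 5 CPM or more, with the number of such members in brackets, the median as a point, the range of members as a bar, and a dashed line at the median of all 10669 genes. All medians lie between -0.08 and 0.12, and only the bar of the endoplasmic reticulum and integrated stress response list lies wholly on one side of 0.

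The 33 proteasome genes, which encode the complex that degrades tagged proteins, had 26 members below 0 and 7 above, at a median of -0.03, where 5498 of all 10669 genes were below 0. Within plates B1 and B2, 10 and 8 of the 33 were above 0, and 0 members passed. The 79 cytoplasmic ribosomal protein genes had a median of 0.01, with 54 above 0 within plate B1 and 28 within plate B2. The 21 antioxidant genes had a median of 0.02, with Sod1 at 390 ± 38.9 and 366 ± 35.2 CPM and Prdx2 at 607 ± 34.6 and 598 ± 24.3 CPM. The 41 DNA repair genes were divided 20 to 21. Hspa8, the constitutive HSC70 chaperone, was at 592 ± 17.3 and 537 ± 43.4 CPM, and Tdrd9, a helicase of the piRNA pathway, at 28.3 ± 2.96 and 33.8 ± 2.60 CPM. Their edgeR adjusted p were 0.88 and 0.76, and 98.4% of the Hspa8 counts were not whole.

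Of 10 measures tested over mouse means by an exact permutation test within plates (525 arrangements, two-sided, smallest possible p 0.0019), 0 passed, and each had an adjusted p of 0.94. Each test used the difference within plates, weighted over the plates, which is not the difference of the overall means. Total counts averaged 2137500 ± 138670 at 2 months and 2051570 ± 119024 at 4 months (exact p = 0.15). The number of genes with a count was 19672 ± 252 and 19617 ± 170 (exact p = 0.40). The cumulus marker level differed by -0.0753 points (exact p = 0.49). Oocytes of 1 mouse correlated with a mean r of 0.969 at 2 months and 0.967 at 4 months (exact p = 0.48). Of 6 principal components, the sixth, with 2.31% of the variance, had the smallest exact p (0.011, adjusted 0.069).

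Most of the sum of squares lay between oocytes of 1 mouse, and so did most of the degrees of freedom. Over the 10669 genes, a median of 78.1% of the sum of squares lay between oocytes of 1 mouse (80.6% of the degrees of freedom). A median of 20.01% lay between mice of 1 age (17.7%), and 0.819% between the ages (1.61%). A share of the degrees of freedom is an expected mean, not a median. With 1 degree of freedom for age, a median under that share does not show less variation than by chance. The shares between mice and between oocytes of 1 mouse also lay near their shares of the degrees of freedom. So they do not rank these sources of variation. Counting error is part of the spread between libraries and was not separated from it. The median gene had a standard deviation of 0.27 log2 units within a mouse, and 39 genes had one over 1. The 10 most variable genes of at least 25 CPM are described here, chosen after their values were seen and given with no test.

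The metal transporter gene Slc39a8 (ZIP8, which carries zinc and manganese; chromosome 3, 135825279 to 135888572) was the most variable of those with whole counts. Its lowest, median and highest oocytes were at 0.528, 6.81 and 207 CPM at 2 months, and at 0, 6.73 and 189 CPM at 4 months. Of the 63 oocytes 41 were under 10 CPM and 10 were over 50 CPM, 4 at 2 months and 6 at 4 months. In mouse 4mo28 its 4 oocytes ran from 0 to 168 CPM. A few oocytes of either age held large amounts of this RNA while others of the same mouse held almost none.

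Gli3, the transcription factor at the end of the Hedgehog pathway (chromosome 13, 15463235 to 15730026), showed the reverse. Most oocytes held much of it, with medians of 163 and 184 CPM at 2 and 4 months and 54 of 63 over 50 CPM. A few held next to none: 2 oocytes of each age were under 10 CPM, down to 1.36 CPM at 2 months and 0.416 CPM at 4 months. Within mouse 4mo25 the 8 oocytes ran from 0.416 to 344 CPM. Arid5b, a chromatin factor that works with a histone demethylase, had medians of 259.9 and 272 CPM with a lowest oocyte of 16.2 CPM at 2 months and 30.9 CPM at 4 months. Map3k21, a mixed lineage kinase, ran from 4.07 to 108 CPM and from 1.80 to 70.8 CPM.

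**Figure D5:**
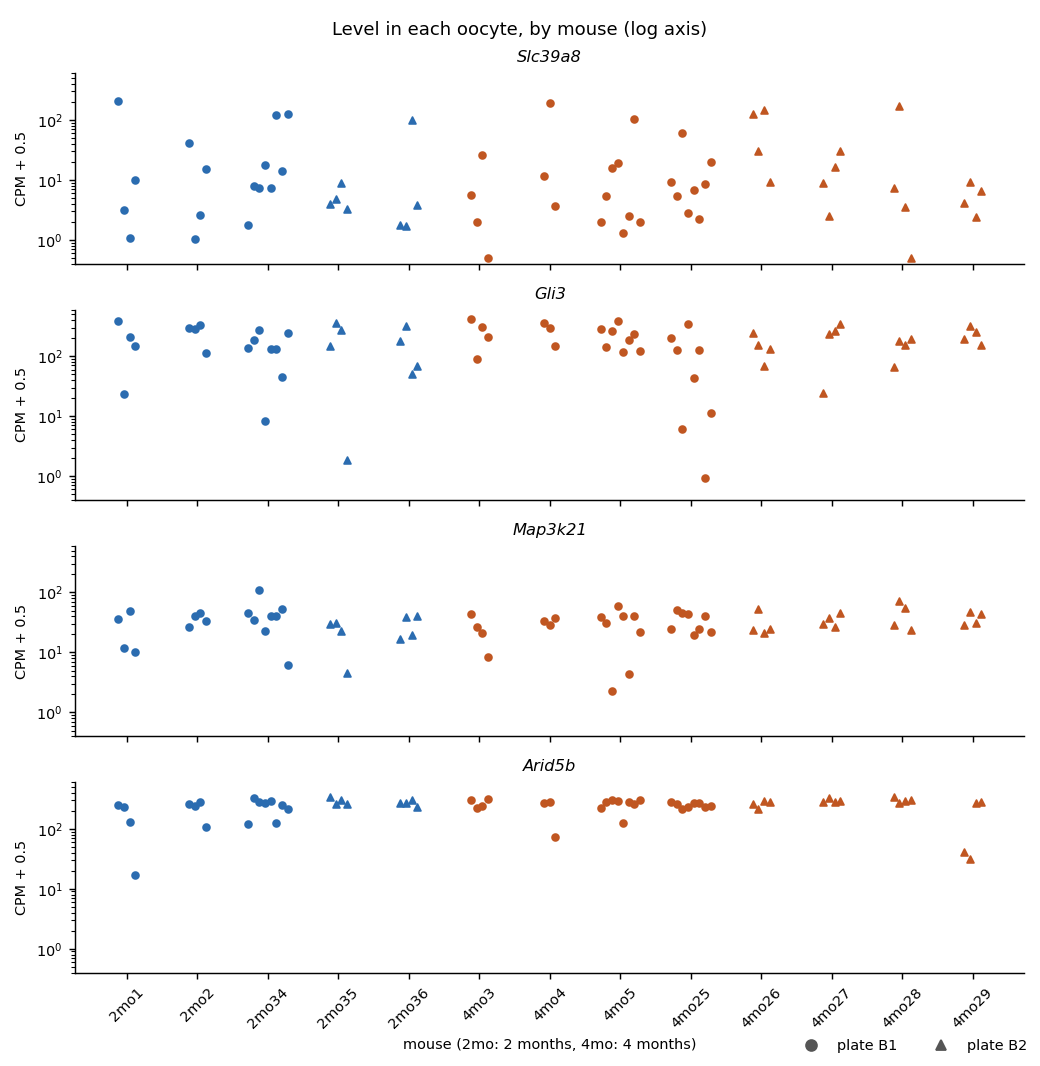
Level of Slc39a8, Gli3, Map3k21 and Arid5b in each of the 63 oocytes (vertical log axes, CPM plus a pseudocount of 0.5), grouped along the horizontal axis by mouse, with blue for 2 and orange for 4 months, circles for plate B1 and triangles for plate B2. Slc39a8 is high in 10 oocytes (over 50 CPM) from 8 mice of both ages, and Gli3 is under 10 CPM in only 4 oocytes.

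The remaining genes of the 10 were Gm49371, Ccnd2, Mir6236, Abcc4, Fmo6 and Gm19757. Gm49371 ran from 0 to 147 CPM, but none of its oocyte counts above 0 was whole, so some of its reads were shared with other places in the genome. Ccnd2, the cyclin D2 gene that granulosa cells use to divide, ran from 0.950 to 136 CPM. Cumulus cells held it at 773 CPM, and their part in its spread was not tested. Abcc4, an export pump for cyclic nucleotides, ran from 5.69 to 75.7 CPM. The standard deviation within a mouse was 2.35 and 2.13 log2 units in Slc39a8, 1.96 and 1.61 in Gli3, and 0.84 and 0.64 in Arid5b at 2 and 4 months. In none of the 10 did the fit of mouse sums pass (edgeR adjusted p of at least 0.99). Over all 10669 genes the median standard deviation within a mouse was 0.25 at 2 months and 0.27 at 4 months.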

How the data were processed

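The data were single-oocyte and cumulus RamDA-seq libraries. Per the study's methods, the authors trimmed reads with Fastq-mcf, aligned them to GRCm38 with HISAT2 (2.0.5) and counted them per gene with featureCounts (1.5.1) on a GENCODE annotation, multi-mapped reads included. The deposited values are expected counts (36.8% of the nonzero oocyte counts were not whole). A count that is not whole shows that some reads were shared, not how many. Among other named genes it was not whole in 57.1% of the oocyte libraries for Nup188, 55.6% for Scd3 and 66.7% for Nlrp5. For Sgo2a it was 76.2% and for Pou5f1 77.8%. The authors' RPKM table of the same libraries was not used for any value given here. The count table had 42349 genes, of which 42230 had a symbol in GENCODE vM21. A planned spike-in share was not computed, since spike-in rows were not among the genes used here.

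Counts were summed per mouse, rounded and tested with edgeR (4.0.16, R 4.3.3): TMM factors, quasi-likelihood F test, age plus plate, a gene filter of at least 5 libraries of 63 with a count, Benjamini-Hochberg at 5%. CPM values were scaled with the TMM factors. The per-oocyte fit took each library as a unit. Cumulus cells were fitted alike, and the difference between cell types with the mouse as a block. Intervals are 95%. Single values per mouse were tested with exact permutation (scipy 1.17.1). Alternatives used DESeq2 (1.42.0) and limma (3.58.1). The fit was also run on simulated data with 200 changed genes and an assumed spread between mice, and no result given here rests on that run. Named genes were to be the 12 of each direction with the largest fold change past 5% at 5 CPM or more and the same sign on both plates, filled to 6 per direction by the smallest p. None passed, so the 6 of the smallest p were named, together with 13 oocyte and 12 cumulus markers and 12 genes of the tissue. Members and lists were chosen with earlier results of these data known. Depths ran from 1238441 to 2433019 counts, and precision follows the spread between mice.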

Additional observations from a re-analysis of the deposited data

Results flagged for a closer look

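In 6 of 108 checks of a gene or library measure within 1 age (5 or 8 mice), a single mouse stood apart from the others by Dixon's test at 95%, where chance gives about 1 in 20. Mouse 2mo34 alone among the 2-month mice had reads on Man2b2 (0.0575 CPM) and on Slc38a3 (0.115 CPM), each from very few reads. Mouse 4mo25 had 1501 CPM of Zp1, against 1347 to 1406 CPM in the other 7 mice of 4 months. Mouse 2mo1 had 620.3 CPM of Nfya, against 579 to 589 CPM. Mouse 4mo27 had 0.601 CPM of Foxl2, against 0 to 0.281 CPM. Mouse 4mo26 had a blood and immune marker level of 2.64 CPM, against 0.598 to 1.40 CPM.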

How the results depend on the processing

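The count of genes past 5% in oocytes, 0 in the fit of mouse sums, was 3 with each oocyte as a unit, 1 (Man2b2) with limma and the mouse as a random block, 3 (Nup188, Mfsd1, Gm45410) with DESeq2, and 5 with no filter (Bmp7, Mfsd1, Man2b2, Gm45410, Plac1). It stayed at 0 without the plate term, within either plate, with RLE factors, filterByExpr, a robust prior, scaled oocytes or the cumulus marker level as covariate. Leaving out each mouse gave 0 to 2 (1 without mouse 2mo2, 2 without mouse 4mo5). The per-oocyte fit gave 3 without the plate term, 5 with DESeq2, 2 with filterByExpr and 0 to 8 when leaving out each mouse, with 0 without mouse 2mo34 or mouse 4mo25 5 without mouse 2mo1, 6 without mouse 4mo3, 8 without mouse 2mo2 and 1 without mouse 2mo35, 2mo36, 4mo27 or 4mo28. The difference between cell types gave 0 with filterByExpr and 0 to 32 when leaving out each mouse, 32 without mouse 4mo29, 13 without mouse 4mo3, 5 without mouse 4mo5, 2 without mouse 2mo34 and 1 without mouse 4mo4. The cumulus count gave 0 to 3, with 3 without mouse 2mo34 and 1 without mouse 2mo2 or mouse 4mo29. The cause was not tested. The 12 genes of the smallest p kept their sign in all 25 alternatives, Mfsd1 from 0.39 to 0.52 and Gm45410 from -0.58 to -0.45. The log2 fold changes of the markers and other fixed genes changed sign in 76 of 772 cases, in 21 of 31 genes, none past the threshold. The largest after a change of sign was 0.915 in size, in Npr2 (-0.91 within plate B2, 0.08 over both plates). In the refits, fits of each plate included, the endoplasmic reticulum list had 16 to 20 of 20 members above 0, while by the difference of mean log2 CPM within plate B2 it had 13. Of the library measures 0 passed under any alternative. No paired analysis was possible because no mouse gave oocytes at both ages, and a number in the labels names 1 mouse of 1 age. Under 5 CPM, depth limits what could be seen.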
